A study of Mus musculus with 3 samples.

Results

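Open chromatin was described at 10 genes of TGF-beta signaling in hair follicle stem cells (HFSCs): the ligand genes Tgfb1, Tgfb2 and Tgfb3, the receptor genes Tgfbr1, Tgfbr2 and Tgfbr3, the signal carriers Smad2 and Smad3, and the inhibitors Smad7 and Skil. The genes were taken as a list, 10 of 21938 protein-coding genes, and each locus ran from 20 kb before the outermost start site to the gene end on GRCm38. The loci held 46 of the 47562 accessible regions of the series, and those of Tgfbr1 were set beside the rest. The study reports a peak in the Tgfbr1 locus as enriched in knockout mice, and the wide gap at its promoter was known here beforehand. Accessibility was measured by Omni-ATAC-seq, a form of ATAC-seq for cleaner nuclei, in HFSCs sorted from the dorsal skin of untreated 6-month-old telogen mice as cells with CD34 and CD49f and without Sca-1. The Msx2-WT group was 1 library from hair-cycle-matched C57BL/6J wild types. The Msx2-KO group was 2 libraries (replicates 1 and 2, here called KO1 and KO2) from germline homozygotes in which a neo cassette sits upstream of exon 2 of Msx2, a homeobox transcription factor gene, in every tissue. The labels do not say how many mice each library pooled. The comparison addresses how loss of Msx2 alters accessibility at this pathway. Per the labels, KO1 and KO2 shared a batch that Msx2-WT was not in. Genotype and batch cannot be told apart, no within-batch value could be had, and no test was run.

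TGF-beta ligands are secreted in a latent form and, once released, bind a type II receptor (Tgfbr2) that recruits and phosphorylates the type I receptor (Tgfbr1). The type I receptor phosphorylates SMAD2 and SMAD3, which join SMAD4, enter the nucleus and act with other DNA-binding factors such as AP-1. In the hair follicle, TGF-beta2 from the dermal papilla is known to help wake stem cells at the end of telogen, while TGF-beta1 is linked to regression of the follicle.

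The libraries differed in depth, which was read from the commonest background at peak summits since the peak lists give no read totals. The background was 1.74 tags per window in Msx2-WT, 0.476 in KO1 and 0.790 in KO2, and 29817, 18518 and 37012 peaks passed a q-value of 0.01. The smallest tag number past that threshold was 9 in Msx2-WT, 5 in KO1 and 6 in KO2. Of 13111 regions shared by all 3 libraries, 13075 had a solved tag number in each, and these are the shared regions ranked below. Their median tags over background were 13.2, 23.1 and 30.4. The median ratio to Msx2-WT, taken region by region, was 1.97 for KO1 and 2.3 for KO2, and these are the usual ratios referred to below. Of 11 HFSC marker promoters, 9, 8 and 10 held a peak, and of 5 leukocyte markers none did. Among all protein-coding genes, the share with a promoter peak was 47.2%, 38.0% and 53.7%, and 2.11% had one in Msx2-WT alone. The counts of each marker list stand beside these shares. Of 5 markers of interfollicular and differentiated epidermis, Ly6a (which encodes Sca-1), Krt10 and Ivl held a promoter peak in Msx2-WT, and none did in either Msx2-KO library. The tags over background of that list summed to 24.7 in Msx2-WT, 0.0 in KO1 and 12.7 in KO2. These sums and those below include listed peaks under the threshold, take an unlisted promoter as 0, and are not scaled by the usual ratios. The KO2 sum came from Krt10 and Ivl, each listed under the threshold with 5 tags. The melanocyte list had 3, 2 and 3 of 5 promoters with a peak and sums of 40.8, 67.2 and 81.0. The fibroblast list had 2, 1 and 3 of 5 with sums of 21.3, 29.4 and 50.7, and the endothelial list 0, 1 and 2 of 5 with sums of 12.1, 25.2 and 24.1. The part of such cells in the results below was not tested, and in these bulk samples fewer open cells and less open chromatin per cell cannot be told apart. The promoter of Msx2 itself held 15, 9 and 16 tags in the same order, and since the cassette lies within the gene this peak does not check the genotype. Peak names inside the KO1 and KO2 lists include cKO, which the labels do not, and those of KO1 carry another library number than its label. The labels were followed, and which library the KO1 values come from was not settled beyond that.

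Every one of the 10 genes had a promoter peak, a summit within 1500 bases of a start, in at least 1 library. They numbered 8 in Msx2-WT, 6 in KO1 and 10 in KO2, where 47.2%, 38.0% and 53.7% of all protein-coding genes had one. Tgfb3, Tgfbr1, Tgfbr3, Smad2, Smad7 and Skil had one in all 3 libraries, as did 35.3% of all genes. Tgfb2 and Smad3 had one in Msx2-WT and KO2 (9.64% of all genes), and Tgfb1 and Tgfbr2 in KO2 alone (6.49%). No member had a promoter peak in KO1 and KO2 and not in Msx2-WT, or in Msx2-WT alone, patterns shown by 2.33% and 2.11% of all genes. No promoter thus separated the genotypes by presence, and the 4 members without a promoter peak in every library differed between KO1 and KO2. Thinned to the depth of the shallowest library, the counts were 3, 6 and 7, and in lists of equal length 5, 6 and 5, so the order of Msx2-WT and KO1 turned.

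Counted over whole loci, the members held 29 peaks in Msx2-WT, 16 in KO1 and 32 in KO2. Per 100 kb this was 3.24, 1.79 and 3.57, compared with 1.98, 1.22 and 2.25 over the loci of all protein-coding genes. Most peaks lay outside promoters, 72.4% in Msx2-WT, 62.5% in KO1 and 68.8% in KO2, and most of these were intronic. Tgfbr1 held 2, 3 and 3 peaks, or 2.45, 3.67 and 3.67 per 100 kb, and the other 9 loci together held 27, 13 and 29, or 3.32, 1.60 and 3.56. Tgfbr1 thus had 1 more peak in KO1, the shallowest library, than in Msx2-WT, and so did Skil (1, 2 and 2 peaks). The extra Tgfbr1 peak in KO1 held 5 tags at a −log10 q of 2.23. The other 9 loci together had fewest in KO1. Of these, Tgfb1, Smad2 and Smad7 held as many in KO1 as in Msx2-WT. The order of the libraries depended on depth: thinned to the shallowest library, the loci held 12 peaks in Msx2-WT, 16 in KO1 and 25 in KO2, and lists of equal length gave 12, 16 and 19. Tgfbr1 held 1, 3 and 3 peaks after thinning.

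**Figure D1:**
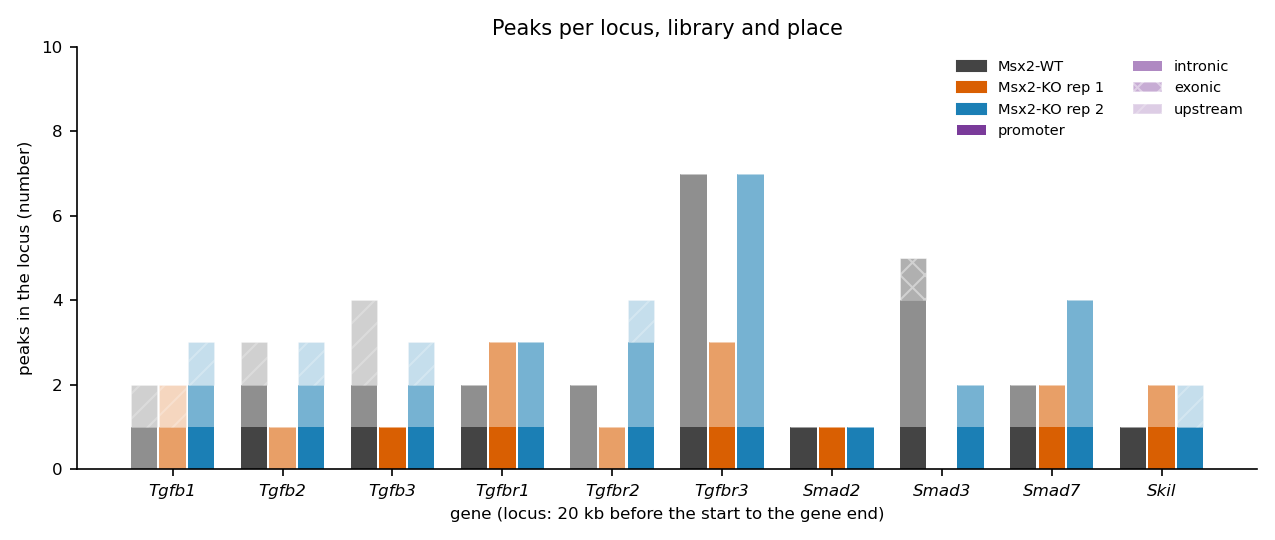
Bars give the number of peaks per locus (y axis) for the 10 genes (x axis) in the Msx2-WT library and KO1 and KO2, shaded by place. Tgfbr3 had the most peaks in Msx2-WT (7) and KO2 (7), Smad2 had 1 promoter peak in each library, and Smad3 had 5 in Msx2-WT, 0 in KO1 and 2 in KO2.

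The 3 ligand genes carried 6 of the 8 upstream regions of the list. They held 9, 4 and 9 peaks in Msx2-WT, KO1 and KO2. Tgfb1 (chromosome 7, 25687002 to 25705077, plus strand), which encodes the ligand most widely made in adult tissue, had no promoter peak listed in Msx2-WT or KO1 and 15 tags at -77 bases in KO2 (95% Poisson interval 8.40 to 24.7). The Tgfb1 locus was nonetheless open in every library at a region -6.0 kb from the start (25680422 to 25681386), with 25 tags in Msx2-WT, 14 in KO1 and 22 in KO2. That region lies within 1500 bases of the start of the neighboring gene B9d2, which encodes a protein of the ciliary transition zone, so it cannot be assigned to Tgfb1 alone. A region in intron 1 of Tgfb1-201, 2.4 kb after the start (25688752 to 25689681), held 16, 10 and 16 tags. Over background, the ratios of KO1 and KO2 to Msx2-WT were near the usual ones, 2.04 and 1.94 for the upstream region and 2.28 and 2.20 for the intronic one.

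Tgfb2 (chromosome 1, 186622792 to 186705989, minus strand), the ligand of the dermal papilla signal, had a weak promoter peak of 11 tags in Msx2-WT and 8 in KO2, and none was listed in KO1. Its only region shared by all 3 libraries was in intron 1 of Tgfb2-201, 10.6 kb after the start (186694949 to 186695860), with 9, 7 and 13 tags. The 9 tags of Msx2-WT are the fewest that passed there. A region at -16.1 kb, inside the gene Rrp15, was past the threshold in Msx2-WT alone with 9 tags, and one at -7.2 kb in KO2 alone with 11 tags.

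Tgfb3 (chromosome 12, 86056745 to 86079041, minus strand) had a promoter peak in every library, but not at the same place. The summit was at -374 bases in Msx2-WT with 12 tags and at 344 bases in KO1 with 8 tags. In KO2 the peak past the threshold was a separate one at 1015 bases with 9 tags, and a peak at -94 bases with 9 tags fell just short at a −log10 q of 1.99. In intron 3 of Tgfb3-201, 12.0 kb after the start, Msx2-WT held 9 tags and KO2 held 18. Before the start, Msx2-WT alone had regions at -12.1 kb with 10 tags and at -15.2 kb (86094167 to 86094396) with 16 tags and a −log10 q of 7.46, and KO2 alone had one at -3.6 kb with 8 tags. All 3 of these lie inside Ift43, a gene of intraflagellar transport.

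Tgfbr1 (chromosome 4, 47353222 to 47414931, plus strand) encodes the type I receptor kinase and had 3 regions, a promoter, one in intron 1 and one in intron 8 of Tgfbr1-201. The sequences of all 3 are shown because this gene is the reference for the rest of the list. They are read on the plus strand of GRCm38, 200 bases each, the promoter from -200 to -1 and the introns around the median summit. Capitals mark matches to the short SMAD element CAGAC, the full SMAD element GTCTAGAC, the AP-1 motif TGANTCA and CAATTA, a core bound by Msx-type homeodomains, on either strand.
Tgfbr1 promoter, chr4:47353022-47353221: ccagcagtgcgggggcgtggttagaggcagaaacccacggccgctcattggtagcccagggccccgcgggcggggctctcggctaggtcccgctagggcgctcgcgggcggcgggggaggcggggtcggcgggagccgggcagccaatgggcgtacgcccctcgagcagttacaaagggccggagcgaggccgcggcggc
Tgfbr1 intron 1, chr4:47361398-47361597: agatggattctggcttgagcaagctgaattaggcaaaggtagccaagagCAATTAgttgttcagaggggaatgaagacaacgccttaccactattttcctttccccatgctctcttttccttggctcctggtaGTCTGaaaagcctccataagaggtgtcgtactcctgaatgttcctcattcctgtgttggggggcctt
Tgfbr1 intron 8, chr4:47407272-47407471: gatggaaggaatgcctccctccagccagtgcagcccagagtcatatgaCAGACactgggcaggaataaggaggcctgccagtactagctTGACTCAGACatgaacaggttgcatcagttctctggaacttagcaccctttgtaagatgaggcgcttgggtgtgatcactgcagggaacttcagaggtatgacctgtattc
The promoter window was 76.0% G+C and held none of the 4 motifs. The intron 1 window was 47.5% G+C and held 1 CAATTA match and 1 short SMAD element. The intron 8 window was 51.5% G+C and held 2 short SMAD elements, 1 of which overlaps the AP-1 match. A match is only the presence of these letters: among all 35816 regions away from promoters, 42.6% of such windows held CAGAC, 14.4% TGANTCA, 8.83% CAATTA and 0.29% GTCTAGAC.

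Of the 11 regions shared by all 3 libraries, the Tgfbr1 promoter had the widest gap between Msx2-WT and the nearer Msx2-KO library. Its summit held 22 tags in Msx2-WT, 48 in KO1 and 56 in KO2, with 95% Poisson intervals of 13.8 to 33.3, 35.4 to 63.6 and 42.3 to 72.7. Both Msx2-KO values lay above the Msx2-WT value in raw tags, although those libraries were shallower. Over the commonest background of each library, the ratio to Msx2-WT was 7.97 in KO1 and 5.60 in KO2. The medians over the 6871 shared promoter regions were 1.87 and 2.3. The deposited fold, which is over local background, differed less, at 5.66 in Msx2-WT, 10.6 in KO1 and 9.59 in KO2. The summits lay at -92, -91 and -47 bases and the peak was 619, 847 and 1469 bases wide. The intron 8 region did not share this gap: 54.1 kb after the start (47406884 to 47407854), the tags were 28, 19 and 26 and the ratios 2.48 and 2.04. The intron 1 region, 8.3 kb after the start (47361028 to 47361749), was past the threshold in KO1 and KO2 with 5 and 10 tags, and no peak was listed there in Msx2-WT. Its −log10 q was 2.23 in KO1, close to the limit of 2.0, and 5.96 in KO2. At a −log10 q of at least 5 it was no longer shared, and in lists of equal length KO2 kept 2 of its 3 Tgfbr1 peaks. Apart from the promoter peak, no peak lay in the 20 kb before Tgfbr1 in any library.

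**Figure D2:**
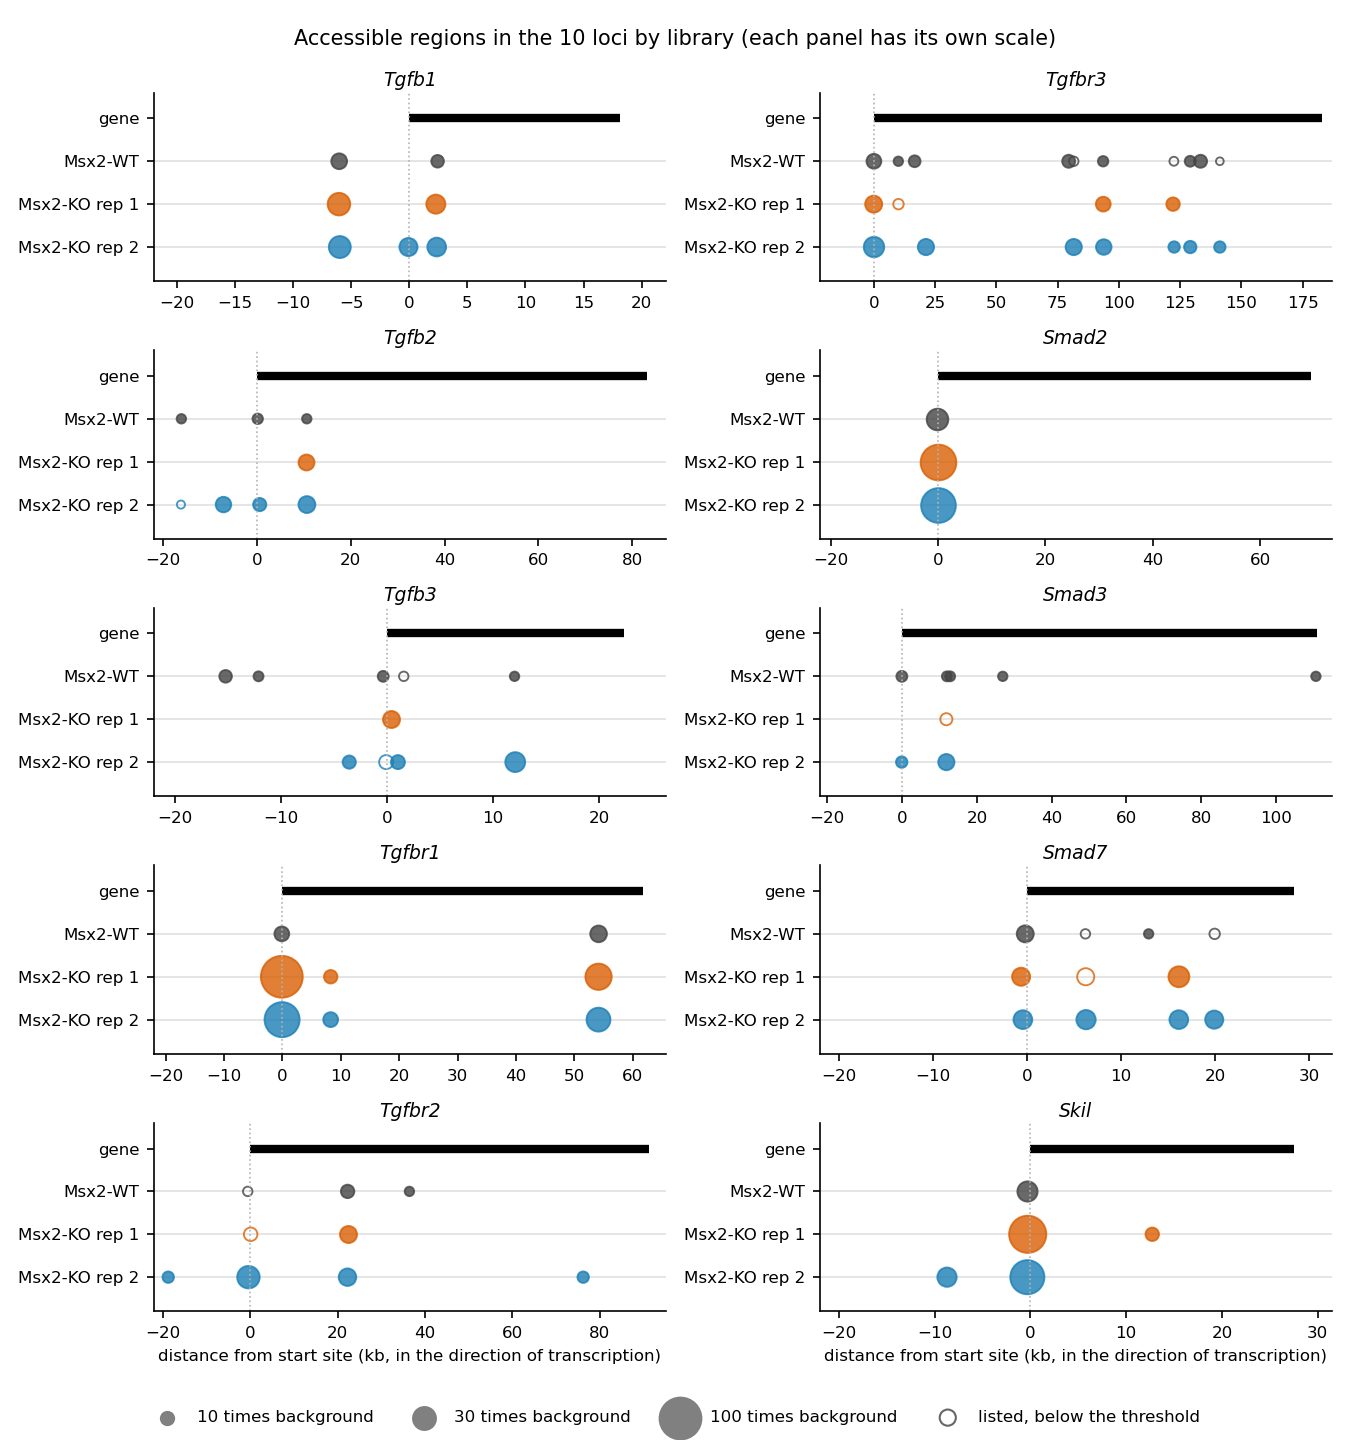
Each panel shows 1 gene, with the distance from its start site in kb on the x axis (each panel on its own scale) and a row for the gene body and each of the 3 libraries. Filled circles are peaks at their summits with an area in proportion to the tags over background, and open circles are listed peaks below the threshold. The Tgfbr1 promoter circle was 12.7 times background in Msx2-WT, 101 in KO1 and 70.9 in KO2, and all 12 regions seen in Msx2-WT alone were under 10.

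Tgfbr2 (chromosome 9, 116084293 to 116175360, minus strand), the type II receptor that binds ligand first, differed from Tgfbr1 in that KO1 and KO2 did not share a promoter peak. A peak past the threshold was present in KO2 alone, with 23 tags at -379 bases, while 9 tags in Msx2-WT (−log10 q 1.75) and 5 in KO1 (1.87) were listed just below the threshold. Its steady region was in intron 1 of Tgfbr2-201, 22.3 kb after the start (116152344 to 116154054), with 18, 8 and 14 tags. The ratios of 1.62 and 1.71 over Msx2-WT were below the usual ones. This region is shown because it held 2 matches to TGANTCA, in capitals, on the minus strand of GRCm38 and with 52.5% G+C. They read TGAGTCA and TGATTCA. Windows also drawn at the Tgfbr2 promoter, at 10.6 kb in Tgfb2 and at 93.6 kb in Tgfbr3 held none of the motifs and are not shown.
Tgfbr2 intron 1, chr9:116152977-116153176: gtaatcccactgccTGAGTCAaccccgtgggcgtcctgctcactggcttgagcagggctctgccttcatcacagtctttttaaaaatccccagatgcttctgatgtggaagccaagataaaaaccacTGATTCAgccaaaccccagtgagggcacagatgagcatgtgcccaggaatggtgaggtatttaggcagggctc
The remaining Tgfbr2 regions were each seen in 1 library, at 36.4 kb in Msx2-WT with 9 tags, and at 76.2 kb and -18.7 kb in KO2 with 6 tags each.

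Tgfbr3 (chromosome 5, 107106570 to 107289629, minus strand) encodes betaglycan, a co-receptor that presents ligand, and is the longest locus of the list at 203 kb. It held 11 of the 46 regions and 7, 3 and 7 peaks. Its promoter was open in all 3 libraries (107288791 to 107289886), with 22 tags in Msx2-WT, 8 in KO1 and 19 in KO2. The Msx2-WT count equalled that of the Tgfbr1 promoter, whereas the ratios over Msx2-WT were 1.33 and 1.90 here. One intronic region, 93.6 kb after the start in intron 3 of Tgfbr3-201 (107194752 to 107196393), was shared by all 3 libraries with 11, 6 and 11 tags. One in intron 4 at 122.4 kb was past the threshold in KO1 and KO2 with 5 and 6 tags, but Msx2-WT also listed 8 tags there at a −log10 q of 1.63. Msx2-WT alone had 4 regions, of which those at 133.4 kb in intron 4 (107156115 to 107156479) and 79.5 kb in intron 3 (107209796 to 107210325) held 17 tags each with −log10 q of 6.11 and 6.61, and nothing was listed there in either Msx2-KO library. The other 2 lay in intron 1 at 16.7 kb with 14 tags and at 10.0 kb with 9. KO2 alone had regions at 141.2, 81.6 and 21.3 kb with 6, 12 and 12 tags. Outside the promoter, Msx2-WT and KO2 thus held 6 peaks each and KO1 held 2.

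Smad2 and Smad3 encode the receptor-activated SMADs and had opposite layouts. Smad2 (chromosome 18, 76241580 to 76310963, plus strand) had 1 region, its promoter, with 47 tags in Msx2-WT, 35 in KO1 and 55 in KO2. In Msx2-WT it was the strongest of all member regions, at 27.0 times background, and the ratios over Msx2-WT were 2.72 and 2.57. No other peak lay in its 89.4 kb locus in any library.

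Smad3 (chromosome 9, 63646767 to 63757994, minus strand) had a promoter peak of 12 tags in Msx2-WT and 6 in KO2, and none was listed in KO1. Its intron 1 held a region at 11.9 kb with 10 tags in Msx2-WT and 12 in KO2, where KO1 listed 4 tags below the threshold. In Msx2-WT alone, intron 1 also held regions at 12.8 kb with 10 tags and 26.9 kb with 9, and an exon near the gene end held one at 110.7 kb with 9. Smad3 was the only member with no peak past the threshold in KO1.

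Smad7 and Skil encode inhibitors that TGF-beta itself is known to induce: SMAD7 blocks the type I receptor, and SKIL (also called SnoN) represses SMAD target genes. Skil (chromosome 3, 31095058 to 31122577, plus strand) had a strong promoter in every library, with 41 tags in Msx2-WT, 38 in KO1 and 53 in KO2. The ratios over Msx2-WT were 3.38 and 2.84, above the usual ones and below those of Tgfbr1. The sequence around its median summit, from -429 to -230 bases, is shown because it held 3 short SMAD elements, in capitals, in a window of 80.5% G+C on the plus strand of GRCm38.
Skil promoter, chr3:31094629-31094828: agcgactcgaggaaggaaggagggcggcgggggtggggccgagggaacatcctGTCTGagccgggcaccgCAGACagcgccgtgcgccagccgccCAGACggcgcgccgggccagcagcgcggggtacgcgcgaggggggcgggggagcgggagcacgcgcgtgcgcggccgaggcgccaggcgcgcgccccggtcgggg
CAGAC was found in 34.1% of all promoter windows of this length, and in 2 of 13 member windows near a start. A region at 12.7 kb in intron 2 of Skil-201 was seen in KO1 alone with 5 tags and one at -8.7 kb in KO2 alone with 17 tags.

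Smad7 (chromosome 18, 75367529 to 75395935, plus strand) had its promoter open in all 3 libraries (75366457 to 75368048), with 29 tags in Msx2-WT, 9 in KO1 and 16 in KO2. Msx2-WT held more tags than either Msx2-KO library, unlike at Tgfbr1, and over background the ratios to Msx2-WT were 1.13 and 1.21, the lowest of the 11 shared regions. The summit was also placed differently, at -186 bases in Msx2-WT, -625 in KO1 and -440 in KO2. The window around the median summit held the full SMAD element GTCTAGAC, which 15 of 11746 promoter regions of the series held (0.128%), and no other window of the 46 member regions held it. Further in, a region in intron 3 of Smad7-201, 16.1 kb after the start (75383339 to 75384038), was present in KO1 and KO2, with 12 tags in KO1 (−log10 q 5.78) and 16 in KO2 (6.47). No Msx2-WT peak was listed there. It was the only region of the 10 loci found in KO1 and KO2 and not in Msx2-WT that passed a −log10 q of 5 in each. Regions at 6.3 and 19.9 kb were past the threshold in KO2 alone with 17 and 15 tags, and Msx2-WT listed 9 and 11 tags there below it. One at 12.9 kb was seen in Msx2-WT alone with 9 tags.

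Taking the 46 regions by the libraries that held them, 11 were in all 3 (23.9%), compared with 32.0% of the 32614 regions in loci of protein-coding genes. In KO1 and KO2 and not in Msx2-WT there were 3 (6.52%, all intronic, in Tgfbr1, Tgfbr3 and Smad7), near the 6.69% of all such regions. With KO1 left out, 16 regions were in KO2 and not in Msx2-WT. In Msx2-WT alone there were 12 (26.1% compared with 17.6%), with 4 in Tgfbr3, 3 in Smad3, 2 in Tgfb3 and none in Tgfbr1. None of these 12 was a promoter, and 6 of them held 9 tags, the fewest that passed in that library. Thinned to the shallowest library, the number in Msx2-WT alone was 3, and in lists of equal length it was also 3. The promoters of Ly6a, Krt10 and Ivl also passed the threshold in Msx2-WT alone, with 12, 10 and 15 tags, and KO2 listed 5 tags below it at each of Krt10 and Ivl. From the same marker list, Lor was listed below the threshold in Msx2-WT with 6 tags, and Krt1 in no library. Over background, Krt10 was at 5.75 in Msx2-WT and 6.33 in KO2, and Ivl at 8.63 and 6.33. In KO1, the 5 tags needed to pass are 10.5 times background, so peaks this weak could not pass there. In KO2 alone there were 13 (28.3% compared with 25.3%), more than the 3 that KO1 and KO2 shared without Msx2-WT, and in Msx2-WT and KO2 there were 5 (10.9% compared with 15.5%). Where a library had no peak past the threshold in a member region, a weaker one was listed in 7 of 17 cases in Msx2-WT, 4 of 30 in KO1 and 2 of 14 in KO2.

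**Figure D3:**
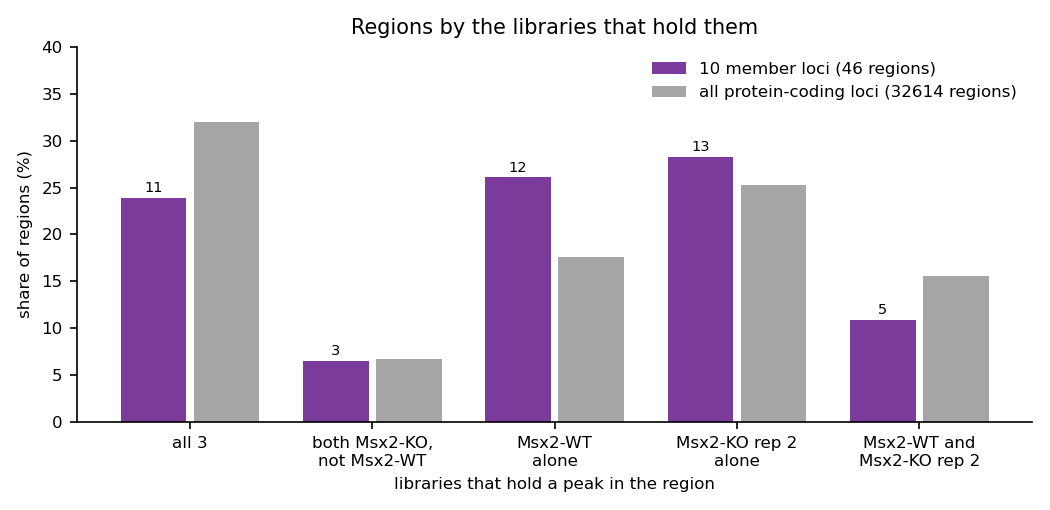
Bars give the share of regions in percent (y axis) held by each combination of libraries (x axis), for the 46 regions of the 10 loci with their number above the bar and for the 32614 regions in all protein-coding loci. The share in KO1 and KO2 and not in Msx2-WT was 6.52% for the members and 6.69% for all loci.

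To compare regions across libraries of unequal enrichment, the tags of each of the 11 shared regions were ranked among the 13075 shared regions of the same library. A region was set down as higher in Msx2-KO where both percentiles exceeded that of Msx2-WT by more than they differed from each other, and as lower in the reverse case. Of the 11, 4 were higher (36.4%, against 25.4% of all shared regions), 2 lower (18.2%, against 22.8%) and 5 neither. The Tgfbr1 promoter went from percentile 48.0 in Msx2-WT to 98.2 in KO1 and 93.1 in KO2. Among the 13075 regions, 322 (2.46%) had KO1 and KO2 at least as far above Msx2-WT as this gap of 45.1. The gap was known before the rules were set, and the study reports a Tgfbr1 peak enriched in Msx2-KO. This share is therefore a description of a region already singled out and lends no support. The Tgfbr1 promoter was higher also when ranked by the deposited fold, by −log10 p and at a −log10 q of at least 5. The Smad2 promoter was at 88.9, 94.9 and 92.7 and the Skil promoter at 83.8, 96.0 and 91.5, so that both were already near the top in Msx2-WT. By the deposited fold neither was higher, and by −log10 p Skil was not. The Tgfb2 intron 1 region was at 1.85, 18.9 and 14.9, near the bottom in every library, and by −log10 p it was not higher.

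In the other direction, the Smad7 promoter was at percentile 65.3 in Msx2-WT, 34.7 in KO1 and 24.4 in KO2. Of all shared regions, 942 (7.20%) had KO1 and KO2 at least as far below Msx2-WT as this gap. It was lower by the deposited fold and −log10 p too, and at a −log10 q of at least 5 it had no value because it was not shared. Its summits lay at -186, -625 and -440 bases, so these ranks compare different sites within the region. The Tgfbr3 promoter was at 48.0, 27.2 and 34.7, and was neither by fold or −log10 p. The Tgfbr1 intron 8 region, at 63.1, 77.6 and 55.1, had Msx2-WT between the Msx2-KO libraries, as did Tgfb1 at -6.0 kb (56.2, 62.0 and 44.3), Tgfb1 intron 1 (28.7, 41.4 and 24.4) and the Tgfbr3 region at 93.6 kb (9.61, 10.1 and 9.02). The Tgfbr2 region at 22.3 kb was at 35.5, 27.2 and 17.9, below Msx2-WT in both by less than they differed, and it was lower by fold and by −log10 p. Of the 6 regions that differed in rank, 5 were promoters, and the 11 ranked regions held 5 promoters. Over all shared regions the shares were alike in promoters (25.2% higher, 22.8% lower) and elsewhere (25.7% and 22.7%). Ranked by tags, the shared intronic regions of the receptors were not among the 6.

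**Figure D4:**
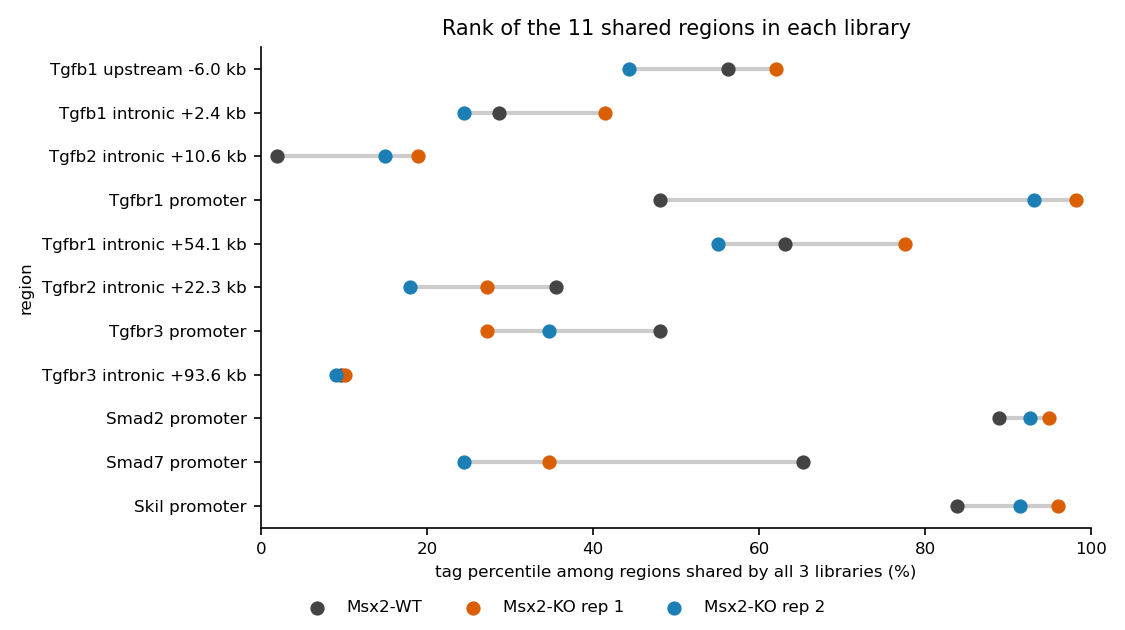
Each row is 1 of the 11 regions shared by all 3 libraries, and the x axis gives its tag percentile among the 13075 shared regions in that library. Points are single libraries joined by a grey bar. The Tgfbr1 promoter went from 48.0 to 98.2 and 93.1, the Smad7 promoter went from 65.3 to 34.7 and 24.4, and the Tgfbr1 intronic region had Msx2-WT between KO1 and KO2.

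Outside the list, 27 other genes of the pathway had 18, 16 and 22 promoters with a peak, where 47.2%, 38.0% and 53.7% of all genes had one. In all 3 libraries there were 13 of the 27 (35.3% of all genes) and in Msx2-WT alone none (2.11%). Among those open in every library were Smad4, the common partner SMAD, the repressor genes Ski and Tgif1, the ubiquitin ligase genes Smurf1 and Smurf2, the decoy receptor gene Bambi, the integrin gene Itgb8 and Thbs1, whose products help free latent TGF-beta, and the target genes Ccn2 and Tgfbi. In KO1 and KO2 and not in Msx2-WT there were 3 of the 27 (2.33% of all genes). Zfyve9, whose product SARA brings SMADs to the receptor, had 6 and 14 tags in KO1 and KO2 and 9 below the threshold in Msx2-WT. Ltbp1, which encodes a latent TGF-beta binding protein, had 10 and 14 tags against 8 below it, and Tmeff1 had 5 and 7 against 7 below it. All 3 were thus listed in Msx2-WT as well. Itgb6, part of an integrin that activates latent TGF-beta, passed in KO2 alone with 13 tags (6.49% of all genes), and Tgif2, Eng, Acvrl1, Lrrc32 and Dcn in none. Pmepa1, Ltbp2, Ltbp4, Itgav and Furin, 5 of the 27, passed in Msx2-WT and KO2 and not in KO1 (9.64% of all genes). At Ltbp2, Ltbp4 and Itgav, KO1 listed 4, 10 and 7 tags below the threshold, and at Pmepa1 and Furin it listed none. Of the target genes, the Ccn2 promoter, singled out after its values were seen, held 17, 40 and 38 tags, or 9.78, 84.0 and 48.1 times background.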

How the data were processed

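Omni-ATAC-seq peak lists of 3 libraries were used, 1 per library and not pooled. According to the study's methods, reads were cleaned by the authors in Trimmomatic and mapped to GRCm38 (mm10) by BWA-MEM. Mitochondrial reads were set aside, and MACS2 was run with no shifting model, a shift of 100, an extension of 200 and duplicates kept, so tags are not independent molecules and the intervals cover counting error only. The MACS2 version is not given in the sources used here. The deposited fold of each summit is a ratio of tags to local background within the library. The deposited −log10 p and −log10 q values come from the Poisson test of MACS2, and the deposited score was not used. The lists stop at a p-value of 0.01, and peaks with a −log10 q above 2.0 were kept on chromosomes 1 to 19, X and Y.

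The tag number at each summit was solved as the whole number that returns the deposited fold and −log10 p, found for at least 99.9% of summits in each library. On simulated peaks it was recovered exactly. The commonest background stood for depth, and Msx2-WT was 3.65 times and KO2 was 1.66 times as deep as KO1. Peaks sharing at least 1 base were merged into regions. Places were taken from GENCODE M21, intron numbers from the named transcript, and sequences from the RefSeq GRCm38.p6 genome. The members, lists, motifs and rules were chosen with earlier results of these data known, the wide gap at the Tgfbr1 promoter among them. All 10 members were named, with the strongest promoter region of each, shared distal regions, and regions of 1 genotype past a −log10 q of 5; others were given for completeness. Alternatives were other thresholds, equal lists, windows of 10 and 50 kb, promoter windows of 500 and 3000 bases, outermost starts, 50% overlap, summits within 100 bases, other ranks and leaving out KO1 or KO2 (Msx2-KO replicates 1 and 2). Every deposited peak and thinned libraries were added after seeing the data. With 1 Msx2-WT library no p-value between genotypes was computed. The RNA-seq data were not analysed here. Scripts ran in Python 3.11.15 with pandas 2.3.3, numpy 2.4.6, matplotlib 3.10.9 and scipy 1.17.1.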

Additional observations from a re-analysis of the deposited data

How the results depend on the processing

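Of the alternative values computed, 74 stayed within 1.5 times the reported count or within 5 percentile points of the reported rank and 34 did not. At a −log10 q of at least 5, member peaks were 12 in Msx2-WT and 7 in KO1, promoters 5, 3 and 6 across the libraries, shared regions 6, regions in KO1 and KO2 alone 1, regions in Msx2-WT alone 4, and regions lower in rank 0. The Tgfbr1 promoter was then at percentile 26 in Msx2-WT and 87.2 in KO2. Lists of equal length gave 12 peaks in Msx2-WT and 19 in KO2, 5 promoters in each of these, and 3 regions in Msx2-WT alone. With 50% reciprocal overlap, 5 regions were shared and 7 were in KO1 and KO2 alone, and with summits within 100 bases 7 were shared. Leaving out each Msx2-KO library in turn gave 4 to 16 regions in Msx2-KO and not Msx2-WT, the larger without KO1, which removes the demand for both libraries. Every deposited peak, chosen after seeing the data, gave 63, 25 and 49 peaks, 18 shared regions and 33 in Msx2-WT alone. Thinning, also chosen then, gave 12 peaks, 3 promoters, 1 Tgfbr1 peak and 3 regions alone in Msx2-WT. Ranked by the deposited fold, 2 regions were higher, with the Tgfbr1 promoter at 36.7 in Msx2-WT and 79.4 in KO2. By −log10 p, 2 were higher, with it at 41.7 in Msx2-WT. The cause of these shifts was not tested beyond the fewer peaks or stricter matches each setting makes. Windows of 10 and 50 kb, the promoter windows, outermost starts and placement by interval moved no count by more than 1.5 times. Regions of 5 to 9 tags are at the limit of this depth, and a missing peak there does not show closed chromatin.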

Other observations

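Beyond the loci, up to 100 kb before the start and 50 kb after the gene end, some members had further regions shared by all 3 libraries. Tgfbr1, Tgfbr3, Smad2 and Smad7 had none. Tgfb2, whose promoter was weak, had a region at -43.4 kb from the start (chromosome 1, 186748991 to 186749846) with 14 tags in Msx2-WT, 15 in KO1 and 32 in KO2, at percentiles 21.2, 65.8 and 68.5 of the shared regions, in a window shared with Rrp15. Both Msx2-KO percentiles lay above Msx2-WT by more than they differed, as in 25.4% of all shared regions. No rank by fold or −log10 p is given for this region. Tgfbr2 had one at -48.2 kb with 23, 8 and 22 tags, and no other protein-coding gene overlaps the 80 kb searched before it.

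Tgfb1 had the strongest of these, 68.0 kb from its start (chromosome 7, 25754526 to 25756356) with 79, 36 and 70 tags, in a window shared with Ccdc97 and Hnrnpul1. Skil had 3 shared regions before its start, the strongest at -99.4 kb with 37, 29 and 50 tags, in a window shared with Prkci. The region past the end of Smad3, at 155.4 kb, held 30, 7 and 22 tags, at percentiles 67.3, 18.9 and 44.3, with Aagab and Iqch in the window. Which gene each of these regions serves was not tested.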
